A study of Drosophila melanogaster with 58 samples.

Results

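The Polycomb group genes described here are 10 of the 17559 genes counted in each of 24 RNA-seq libraries of Drosophila melanogaster wings that are labelled female. They were chosen by their FlyBase symbols, Pc, ph-p, ph-d, Psc, Su(z)2, Sce, E(z), esc, Su(z)12 and pho, and all 10 were found in the files and passed the filter on low counts. The wild-type wings came from the wandering third-instar larva (L3) and from pupae 6, 18, 24, 36 and 44 h after puparium formation (APF). The other wings were taken at ages equivalent to 24 and 44 h APF and carried hs-FLP, tub>CD2>GAL4, UAS-GFP and tub-gal80TS, either alone (control), with UAS-E2F1 and UAS-DP (E2F), or with UAS-CycD, UAS-Cdk4, UAS-E2F1 and UAS-DP (E2F+CycD). In all 3 of these genotypes a larval heat shock removed the CD2 stop cassette, so GAL4 was driven by the tubulin promoter in cells where the flip occurred, and a temperature shift in the pupa released it from Gal80. Wild-type wings had neither the transgenes nor this temperature regime. Each of the 12 groups had 2 libraries. The labels do not say whether replicates came from separate crosses, so the spread between them may be partly technical.

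Polycomb group proteins keep genes silent through cell division. Polycomb repressive complex 2 (PRC2) methylates lysine 27 of histone H3, with E(z) as the methyltransferase and esc and Su(z)12 as the subunits that enable it. Polycomb repressive complex 1 (PRC1) holds Pc, which reads this mark, the polyhomeotic proteins of ph-p and ph-d, Psc or its relative Su(z)2, and Sce, the E3 ligase that places ubiquitin on histone H2A. Pleiohomeotic, the product of pho, is a DNA-binding protein that brings these complexes to Polycomb response elements. In wing discs these complexes are best known for holding the Hox genes of other segments off. Wing cells leave the cell cycle at about 24 h APF. E2F activity delays this exit, and E2F with Cyclin D and Cdk4 lets cells go on dividing.

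Between 1900774 and 7512920 reads were counted on genes in a wild-type library and between 11201219 and 16332737 in a transgenic one, so low genes were measured less precisely in wild type. A level is given as CPM, counts scaled to a common library size, separately for the wild-type and the transgenic series. The scaling sets the bulk of genes level between libraries, so each level or fold change is relative to most other genes in the wing. Fewer cells of one type cannot be told apart from less RNA per cell. Wing epithelium markers were present in every library, with a summed level from 565 to 2414 CPM for 4 genes. roX1 and roX2, which mark male tissue, summed to 197 and 9.0 CPM at L3, 55.8 and 26.5 CPM at 6 h, 106 and 49.5 CPM at 18 h and 18.4 and 52.8 CPM at 24 h, to between 5.58 and 12.8 CPM in the later wild-type libraries, and to at most 4.64 CPM in any transgenic library. The higher of these values go against the female label of the earlier wild-type libraries, and the amount of male tissue was not measured. The 6 muscle and myoblast markers summed to 268 and 1017 CPM at 44 h in wild type, and the 4 fat body markers to 111 and 511 CPM at 6 h. Calls that were lost without 1 of these libraries are named with the result. The transgenes were visible in the labelled groups: at 44 h, E2f1 was at 104 and 133 CPM in control, 3823 and 4418 CPM in E2F and 1589 and 1976 CPM in E2F+CycD wings, and CycD was at 27.1 and 27.4, 30.6 and 27.9, and 1771 and 1826 CPM.

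The first question was how the Polycomb group genes behaved as wild-type wings went from proliferation to differentiation. The PRC2 genes esc, Su(z)12 and E(z) were lower at 44 h than at L3, Su(z)2 was higher, Psc was lower, and Pc, ph-p, ph-d, Sce and pho did not pass the test. The test was edgeR's quasi-likelihood F-test, and a gene passed at a Benjamini-Hochberg adjusted p under 0.05 over the 8669 genes tested. Between L3 and 44 h, 1 member was higher and 4 were lower, where 32.9% of all genes tested were higher and 30.6% lower. The median log2 fold change was -0.15 over the members and 0.00 over all genes. Markers of other cells moved in the same comparison: all 4 fat body markers were higher, with a sum of 3.28 and 3.48 CPM at L3 and 180.3 and 110.04 CPM at 44 h, 3 of 4 neuron markers were higher, 3 of 6 muscle and myoblast markers were higher and 2 lower, and 2 of 4 wing epithelium markers were lower. The part of these cells in the changes of the members was not tested.

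esc, whose product binds the methylated histone tail and stimulates E(z), showed the widest range over stages. Its level was 13.2 and 11.9 CPM at L3, 9.40 and 5.55 CPM at 6 h, 7.59 and 7.96 CPM at 18 h, 3.75 and 1.89 CPM at 24 h, 1.33 and 0.504 CPM at 36 h, and 1.955 and 3.16 CPM at 44 h. Both libraries of each stage from 24 h on lay below every earlier library, and the 36 h values rest on 5 and 2 reads. From L3 to 44 h esc changed by -2.28 ± 0.39 on the log2 scale (SE, edgeR adjusted p = 0.00028), a 4.85-fold decrease. Among neighbouring stages the decrease from 24 h to 36 h passed (log2 fold change -1.79 ± 0.57, edgeR adjusted p = 0.028). It did not pass with DESeq2 (-1.68, adjusted p = 0.0708), nor without replicate 1 at 24 h (-1.04) or replicate 2 at 36 h (-1.24). The step from 18 h to 24 h (-1.28 ± 0.40, edgeR adjusted p = 0.0551) did not pass, nor did it with DESeq2. That step passed with RLE scaling or scaling by library totals.

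esc lies on 2L:11827204-11829405 (dm6, minus strand), inside an intron of Pde1c, a cyclic nucleotide phosphodiesterase gene on the same strand. It is the member whose promoter window held a match to the letters searched for E2F, so the 250 bases before its annotated start are shown, 2L:11829406-11829655 read on the minus strand, with the match in capitals:
esc: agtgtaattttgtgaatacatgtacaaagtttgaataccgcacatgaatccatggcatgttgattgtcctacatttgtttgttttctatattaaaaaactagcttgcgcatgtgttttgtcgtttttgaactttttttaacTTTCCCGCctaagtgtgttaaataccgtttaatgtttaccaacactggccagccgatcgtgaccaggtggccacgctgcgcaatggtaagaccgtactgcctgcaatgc
The search covered 250 bases before to 50 bases after the start of the canonical transcript of 13967 protein-coding genes (RefSeq genome, Ensembl annotation). Other annotated starts of a gene were not searched. Both strands were searched for TTTCCCGC, TTTCGCGC, TTTGCCGC and TTTGGCGC. At least 1 of these was found in 904 promoters (6.47%) and in 1 of the 10 members, where the match began at position -109 from the start. Binding was not tested. TATCGATA, the DNA replication-related element, was in 8.94% of promoters and in no member.

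E(z), the catalytic subunit, rose and fell by smaller amounts. Its level was 35.1 and 37.2 CPM at L3, 26.1 and 23.1 CPM at 6 h, 40.8 and 36.7 CPM at 18 h, 26.7 and 31.6 CPM at 24 h, 16.7 and 15.4 CPM at 36 h, and 22.4 and 20.3 CPM at 44 h. The 18 h and L3 libraries were the highest and the 36 h libraries the lowest, with 6 h and 44 h next to them. E(z) fell from L3 to 6 h (-0.55 ± 0.19 log2, adjusted p = 0.0299), rose to 18 h (0.65 ± 0.19, adjusted p = 0.0123) and fell from 24 h to 36 h (-0.84 ± 0.20, adjusted p = 0.00536). The fall to 6 h did not pass without either L3 library (adjusted p = 0.0942 and 0.126) or 6 h replicate 2 (0.0843), and the rise to 18 h did not pass without 18 h replicate 1 (0.0818). From L3 to 44 h the log2 fold change was -0.76 ± 0.19 (adjusted p = 0.00334).

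Su(z)12, which together with esc is required for methyltransferase activity, fell gradually. It was at 42.4 and 45.6 CPM at L3, 38.2 and 25.9 CPM at 6 h, 27.6 and 21.1 CPM at 18 h, 24.8 and 24.0 CPM at 24 h, 20.2 and 22.9 CPM at 36 h, and 18.9 and 19.3 CPM at 44 h. Both L3 libraries were above all others, no step between neighbouring stages passed, and the libraries of 18 h, 24 h and 36 h overlapped. From L3 to 44 h it changed by -1.20 ± 0.22 log2 (adjusted p = 0.000488). The 3 PRC2 decreases from L3 to 44 h passed under every alternative tried, including without L3 replicate 1, the library with the high roX level, and without 44 h replicate 2, the one with the high muscle level.

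**Figure D1:**
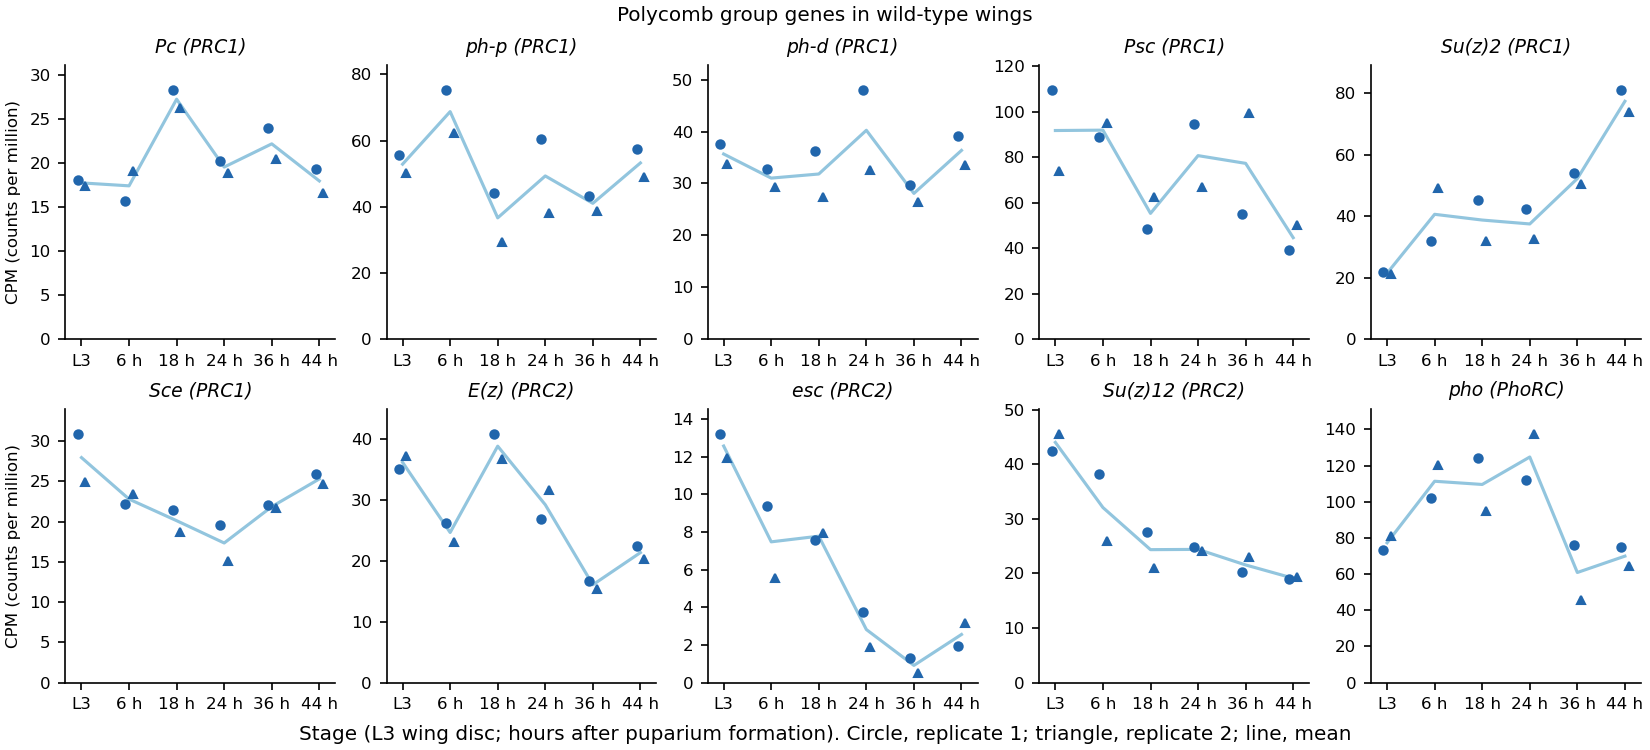
CPM of the 10 members in wild-type wings (y axis, each panel from 0) by stage (x axis). Circles and triangles are the 2 libraries and the line joins their means. esc falls from 13.2 and 11.9 CPM at L3 to below 4 CPM from 24 h, and Su(z)2 is highest at 44 h.

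In PRC1 the paralogues Psc and Su(z)2 moved in opposite directions. They lie next to each other on 2R, at 2R:12965997-12980994 and 2R:12996501-13007911, with 15506 bases between them, and both encode RING-finger proteins that compact chromatin. Su(z)2 was at 21.7 and 21.2 CPM at L3, 32.0 and 49.3 CPM at 6 h, 45.4 and 32.1 CPM at 18 h, 42.5 and 32.5 CPM at 24 h, 54.2 and 50.4 CPM at 36 h, and 81.0 and 73.8 CPM at 44 h. The L3 libraries were the lowest and the 44 h libraries the highest, while 6 h, 18 h and 24 h overlapped. Su(z)2 changed by 1.85 ± 0.25 log2 from L3 to 44 h (adjusted p = 4.16e-05), a 3.60-fold increase that passed under every alternative. The first step, from L3 to 6 h, was 0.91 ± 0.25 (adjusted p = 0.011), but not without either L3 library (adjusted p = 0.0689 and 0.0616) or 6 h replicate 2, the library with the high fat body level (0.129).

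Psc was at 109.5 and 74.0 CPM at L3, 89.0 and 94.9 CPM at 6 h, 48.3 and 62.4 CPM at 18 h, 94.6 and 66.9 CPM at 24 h, 55.2 and 99.5 CPM at 36 h, and 39.1 and 50.2 CPM at 44 h. The replicates of L3, 24 h and 36 h were far apart, and of the later stages only 18 h and 44 h had both libraries below both L3 libraries. The log2 fold change from L3 to 44 h was -1.04 ± 0.30 (adjusted p = 0.00925), but the adjusted p was 0.115 without L3 replicate 1 and 0.0813 without 44 h replicate 1.

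Per exon base within a library, Psc was the more abundant transcript early and Su(z)2 the more abundant at 44 h. The ratio of Psc to Su(z)2 started at 5.35 and 3.71 (L3) and was then 2.96 and 2.04 (6 h), 1.13 and 2.06 (18 h), 2.36 and 2.18 (24 h), 1.08 and 2.10 (36 h), and 0.512 and 0.722 (44 h). It was above 1 in all 10 wild-type libraries before 44 h and below 1 in both at 44 h. In the transgenic wings it was between 1.42 and 1.90 in the 6 libraries at 24 h and between 0.618 and 0.931 in the 6 libraries at 44 h. These ratios are a description, given with no test, and do not depend on the scaling of libraries.

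**Figure D2:**
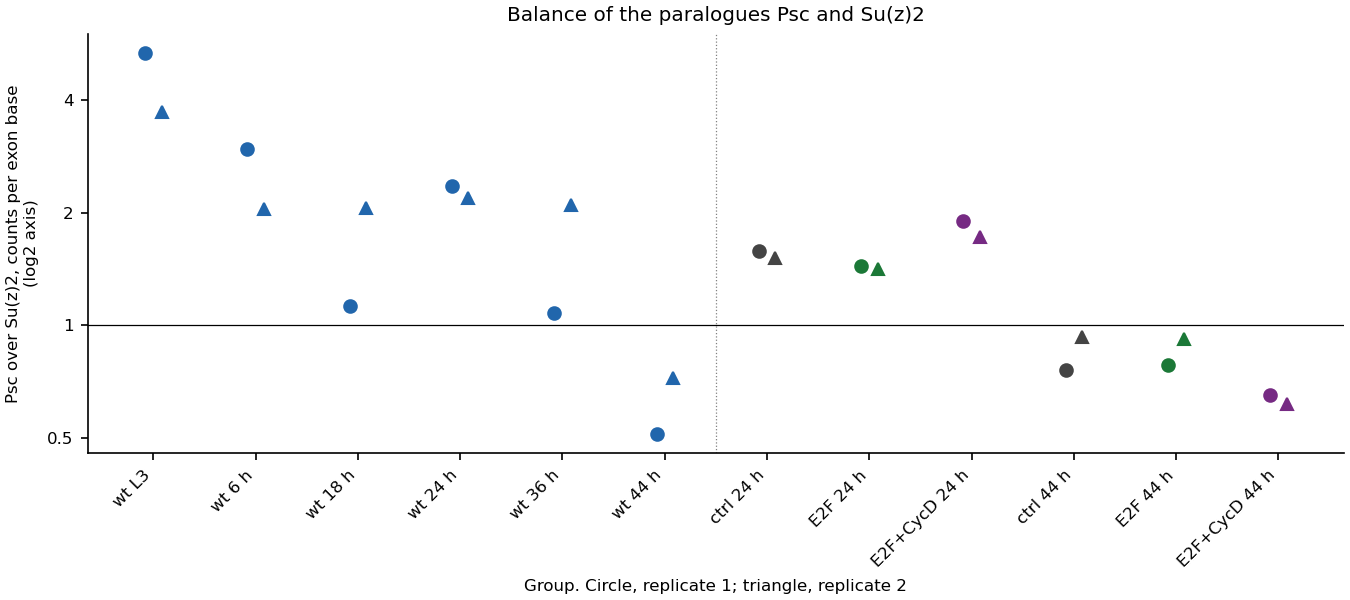
Ratio of Psc to Su(z)2 counts per exon base in each library (y axis, log2 scale) by group (x axis). Circles and triangles are replicates 1 and 2, and the dotted line separates wild-type from transgenic wings. Both libraries of every 44 h group lie below 1, and all libraries of the other groups lie above it.

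The other PRC1 genes changed less. Pc, the chromodomain protein, was at 15.7 and 19.1 CPM at 6 h and 28.2 and 26.2 CPM at 18 h, its highest stage, and between 16.5 and 23.9 CPM at the other 4 stages. The increase from 6 h to 18 h was 0.66 ± 0.20 log2 (adjusted p = 0.0179), but it did not pass without 6 h replicate 1 (adjusted p = 0.0982) or 18 h replicate 1 (0.093). Sce ranged from 15.1 to 30.9 CPM over the 12 libraries and passed in no comparison between stages. ph-p fell from 75.2 and 62.2 CPM at 6 h to 44.0 and 29.3 CPM at 18 h (-0.90 ± 0.26 log2, adjusted p = 0.0128), but not without 6 h replicate 1 (0.0574) or 18 h replicate 2 (0.124). ph-d stayed between 26.4 and 48.0 CPM and passed in no comparison between stages.

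ph-p and ph-d are tandem duplicates on the X chromosome, at X:2126210-2138371 and X:2115727-2123286, with 2923 bases between them. Of all exact 50-base words in the exons of ph-p, 29.6% also occur in the exons of ph-d, and 33.45% the other way. Depending on their length, reads from those stretches may not have been assigned to one gene, so the counts of both are uncertain. No 50-base word is shared between Psc and Su(z)2. GAGAG, the core bound by GAGA factor, was in the promoter window of 4 of the 10 members, ph-p, ph-d, Psc and Su(z)2. It was in 30.2% of all promoters searched on both strands, and the difference from this share was not tested. The match of Psc began 26 bases after the start, and those of Su(z)2 all lay before it. Whether the genes of the 2 pairs share an element was not tested. In the X-linked pair both genes had a match at a similar distance upstream, and only ph-d had matches nearer the start. These matches are shown with GAGAG or its complement in capitals:
ph-p, X:2136830-2136854, minus strand: ttgcgctctgCTCTCtctgcgttcg
ph-d, X:2122003-2122027, minus strand: caaagtgtatCTCTCgttcccttct
ph-d, X:2121839-2121863, minus strand: tttcgcgttgGAGAGcaagagagag
ph-d, X:2121827-2121851, minus strand: gagcaagagaGAGAGtctttggcgg
The first begins at position -222 from the start of ph-p and overlaps a second match there, and the others begin at -225, -61 and -49 from the start of ph-d, where further matches overlap the last. These are matches of letters and were not tested for binding.

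pho, the DNA-binding member on chromosome 4 (4:1172469-1181628), fell between 24 h and 36 h. It was at 73.3 and 81.3 CPM at L3, 102 and 120.5 CPM at 6 h, 124 and 95.0 CPM at 18 h, 112 and 138 CPM at 24 h, 75.9 and 45.8 CPM at 36 h, and 75.2 and 64.7 CPM at 44 h. All libraries of 6, 18 and 24 h were above those of L3, 36 h and 44 h. The decrease from 24 h to 36 h was -1.03 ± 0.25 log2 (adjusted p = 0.00745), with an adjusted p of 0.07 without 24 h replicate 2 and 0.085 without 36 h replicate 2. GCCAT, the core recognised by pleiohomeotic, was in the promoter window of 40.7% of all genes and not in that of pho. It was in that of 5 members, Psc, Sce, E(z), esc and Su(z)12. For E(z) the start searched, 3L:10637879, lay inside the annotated gene, which ends at 3L:10638130. GGTCACACT, known as Motif 1, was in 5.86% of all promoters and in those of Sce and E(z), where it began 23 and 13 bases after the start:
Sce, 3R:27681988-27682016, minus strand: accaaagtgcGGTCACACTtcaagctaat
E(z), 3L:10637848-10637876, minus strand: gcagtacaacGGTCACACTgcggcagctg

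Between neighbouring stages, 2 members passed from L3 to 6 h, 3 from 6 h to 18 h and 3 from 24 h to 36 h, where 45.8%, 45.2% and 37.1% of all genes tested passed. No member passed with edgeR from 18 h to 24 h or from 36 h to 44 h, where 12.9% and 28.6% of all genes passed. In these 2 steps 3 members each had an unadjusted p under 0.05, Pc, E(z) and esc from 18 h to 24 h and Psc, Su(z)2 and esc from 36 h to 44 h, and DESeq2 called none in either. Over all stages together, 7 members passed the test of any difference, against 83.5% of all genes, and ph-p, ph-d and Sce did not. Without L3 replicate 1, Pc (adjusted p = 0.0858) and Psc (0.0629) did not pass either. Pc was also lost without L3 replicate 2 (0.089), 18 h replicate 1 (0.209) or 2 (0.102), 36 h replicate 1 (0.0549) and 44 h replicate 1 (0.0505) or 2 (0.0657), and Psc without 18 h replicate 1 (0.0783) and 44 h replicate 1 (0.155) or 2 (0.0724).

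The second question was what happened to these genes when cell cycle exit was delayed or bypassed. With E2F, all 3 PRC2 genes were higher than in control wings at both ages, and with E2F+CycD all 3 were higher at 44 h and 2 of the 3 at 24 h. The PRC1 genes showed smaller differences, none above 1 on the log2 scale. At 24 h, 4 members were higher in E2F than in control wings and none lower, where 15.5% of the 9636 genes tested were higher and 8.18% lower. At 44 h, 3 members were higher and 1 lower, where 19.3% were higher and 20.9% lower. The median log2 fold change was 0.15 over the members and -0.01 over all genes at 24 h, and 0.08 and -0.07 at 44 h. The share of calls that were higher among all genes at 24 h was 65.5%, and 54.7% with DESeq2. In E2F+CycD wings at 44 h, 4 of 6 muscle and myoblast markers and 4 of 4 neuron markers were lower than in control, and with E2F at 44 h 1 of 6 and 3 of 4, and the part of these cells in the results below was not tested.

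esc had the largest change of the 10 members. It was at 4.29 and 5.32 CPM in control, 21.1 and 22.9 CPM in E2F and 14.7 and 10.3 CPM in E2F+CycD wings at 24 h. At 44 h it was at 3.18 and 4.80 CPM in control, 13.0 and 14.3 CPM in E2F and 11.4 and 14.4 CPM in E2F+CycD wings. The lowest library with E2F was above every control library at both ages. The log2 fold change with E2F was 2.19 ± 0.23 at 24 h (adjusted p = 3.33e-05, 4.55-fold) and 1.78 ± 0.26 at 44 h (adjusted p = 0.000257, 3.43-fold). With E2F+CycD it was 1.37 ± 0.24 (adjusted p = 0.00205) and 1.69 ± 0.26 (adjusted p = 0.000226). At 24 h, esc was lower in E2F+CycD than in E2F wings (-0.82 ± 0.21 log2, adjusted p = 0.0313), but this did not pass without either E2F library (adjusted p = 0.113 and 0.173) or E2F+CycD replicate 2 (0.217).

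Su(z)12 about doubled at 24 h. It was at 45.6 and 41.0 CPM in control, 92.5 and 92.1 CPM in E2F and 103 and 68.8 CPM in E2F+CycD wings at 24 h, and at 35.9 and 41.9, 58.4 and 61.3, and 72.9 and 66.4 CPM at 44 h. No library with E2F overlapped the controls. The log2 fold change with E2F was 1.09 ± 0.18 at 24 h (adjusted p = 0.000805) and 0.62 ± 0.18 at 44 h (adjusted p = 0.0166), the second not passing without control replicate 1 (0.0945) or E2F replicate 2 (0.061). With E2F+CycD it was 0.99 ± 0.18 (adjusted p = 0.00248) and 0.84 ± 0.18 (adjusted p = 0.00214).

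E(z) was at 13.9 and 12.5 CPM in control, 25.7 and 23.8 CPM in E2F and 22.4 and 16.6 CPM in E2F+CycD wings at 24 h, and at 7.09 and 9.22, 15.2 and 14.3, and 17.9 and 14.2 CPM at 44 h. The groups with E2F did not overlap the control at either age. The log2 fold change with E2F was 0.91 ± 0.19 (adjusted p = 0.00424) at 24 h and 0.86 ± 0.21 (adjusted p = 0.00664) at 44 h. The first did not pass without control replicate 2 at 24 h (0.0563) and the second not without control replicate 1 at 44 h (0.0598). With E2F+CycD it was 0.56 ± 0.19 (adjusted p = 0.0685) at 24 h, which did not pass, and 0.98 ± 0.21 (adjusted p = 0.002) at 44 h.

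**Figure D3:**
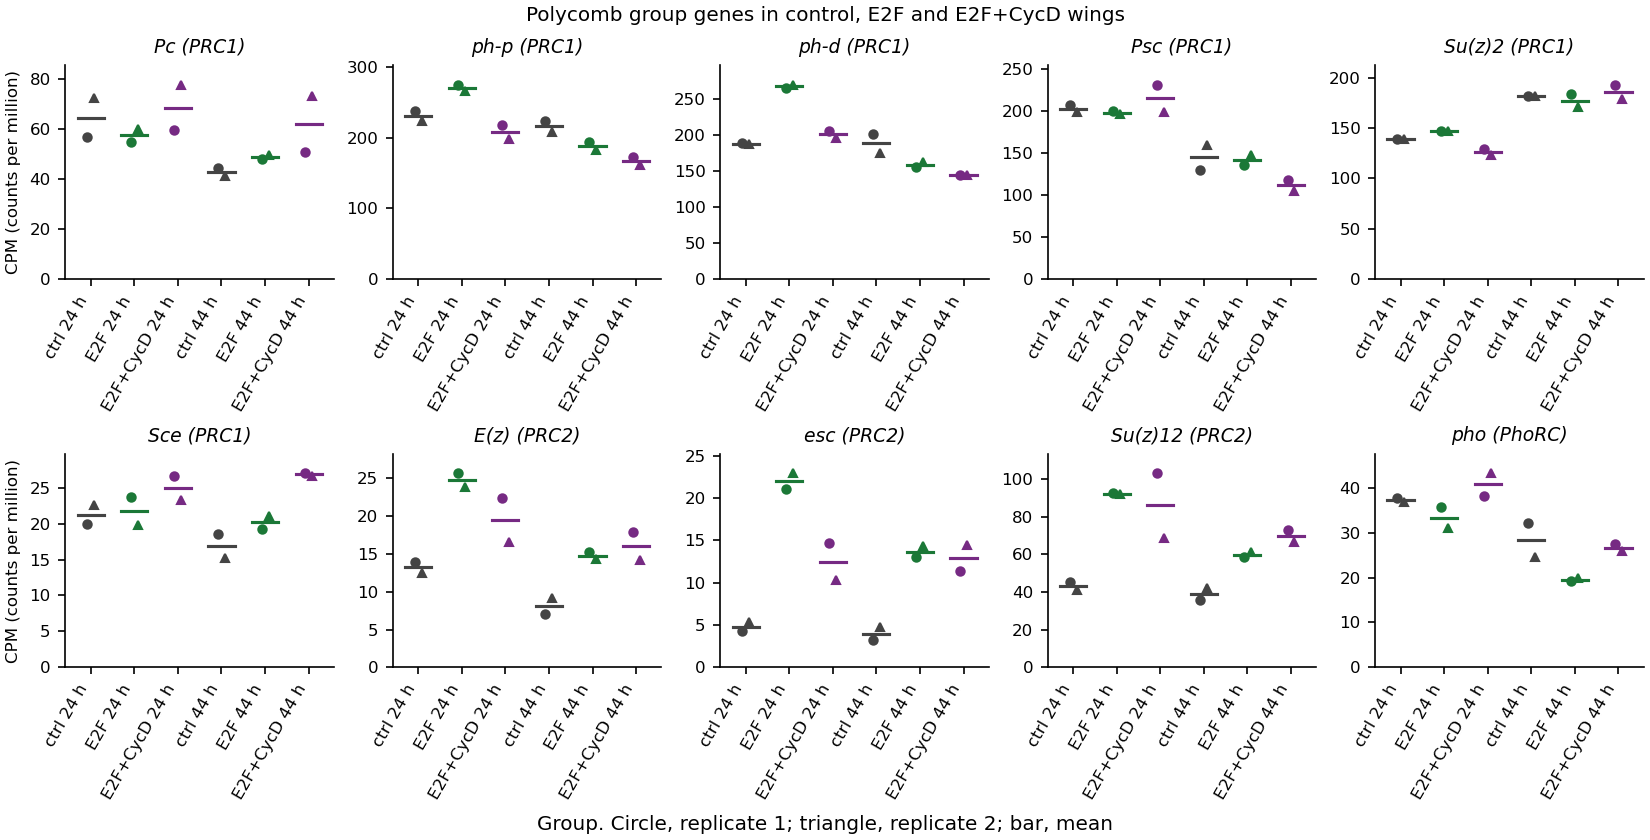
CPM of the 10 members in control, E2F and E2F+CycD wings at 24 and 44 h (y axis, each panel from 0). Circles and triangles are the 2 libraries of a group and bars are their means. For E(z), esc and Su(z)12 every library with E2F lies above both controls of its age.

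In PRC1, ph-d was at 188 and 188 CPM in control and 265 and 269.7 CPM in E2F wings at 24 h, and at 202 and 175 CPM in control and 155 and 162 CPM in E2F wings at 44 h. It was thus above both controls at 24 h and below both at 44 h, but the 44 h direction turned to higher, by 0.36 log2, when libraries were scaled by their totals. The log2 fold change was 0.51 ± 0.12 (adjusted p = 0.00975) at 24 h and -0.25 ± 0.12 (adjusted p = 0.123) at 44 h, where only the first passed. The 24 h call was lost without any 1 of the 4 libraries compared, with adjusted p between 0.0653 and 0.0793. The difference between the ages, -0.76 ± 0.17, passed as an interaction (adjusted p = 0.00985), as it did for 18.7% of all genes, and ph-d was the only member for which it passed. It did not pass without control replicate 2 at 24 h (0.0506). Its duplicate ph-p was at 238 and 224 CPM in control and 275 and 267 CPM in E2F wings at 24 h (0.23 ± 0.12 log2, adjusted p = 0.191) and at 223 and 209, and 194 and 183 CPM at 44 h (-0.20 ± 0.12, adjusted p = 0.222, and 0.42 with scaling by totals). Su(z)2 was at 139 and 139.7 CPM in control, 147 and 147 CPM in E2F and 129.8 and 123 CPM in E2F+CycD wings at 24 h, and at 182 and 182, 184 and 171, and 193 and 179 CPM at 44 h. None of its 4 differences from control passed, with values of 0.08 ± 0.11 and -0.04 ± 0.11 log2 with E2F and -0.14 ± 0.11 and 0.03 ± 0.11 with E2F+CycD. With E2F at 24 h, Pc (-0.17 ± 0.19), Psc (-0.04 ± 0.14), Sce (0.03 ± 0.15) and pho (-0.16 ± 0.14) did not pass either, nor at 44 h Pc (0.19 ± 0.20), Psc (-0.03 ± 0.14) and Sce (0.26 ± 0.16).

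With E2F+CycD at 44 h, 5 members were higher and 3 lower than in control wings, where 24% of all genes tested were higher and 27.2% lower. At 24 h only esc and Su(z)12 passed, both higher, where 9.44% of all genes were higher and 4.86% lower. Of all calls at 24 h, 66.0% were higher, and 53.9% with RLE scaling or 48.8% with DESeq2. In the same comparison 2 of 4 fat body markers were higher, with a sum of 303 CPM in E2F+CycD replicate 1 and 39.1 CPM in replicate 2, against 17.1 and 47.7 CPM in control, and replicate 1 also had the higher esc and Su(z)12. Without it esc (1.08 log2, adjusted p = 0.0243) and Su(z)12 (0.66, adjusted p = 0.0265) still passed. pho was at 0.13 ± 0.14 log2 at 24 h and -0.09 ± 0.15 at 44 h with E2F+CycD, and neither passed. Besides the PRC2 genes, Sce was higher at 44 h, at 27.0 and 26.7 CPM against 18.6 and 15.2 CPM in control (0.67 ± 0.16 log2, adjusted p = 0.00404), which passed under every alternative. Pc was at 50.8 and 73.04 CPM against 44.3 and 41.0 CPM (0.54 ± 0.20, adjusted p = 0.0388). The adjusted p of Pc was 0.333 without E2F+CycD replicate 2, 0.0626 and 0.0761 without control replicates 1 and 2, and 0.0512 without E2F replicate 2 at 24 h.

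ph-p, at 172 and 161 CPM against 223 and 209 CPM in control, ph-d, at 145 and 144 CPM against 202 and 175 CPM, and Psc, at 119 and 104 CPM against 130.5 and 159.8 CPM, were lower in E2F+CycD wings at 44 h by 0.37 ± 0.12, 0.38 ± 0.12 and 0.38 ± 0.14 on the log2 scale (adjusted p = 0.0227, 0.0196 and 0.0421), but these 3 directions turn to higher when libraries are scaled by their totals. The adjusted p of ph-p and ph-d was 0.145 and 0.0968 without E2F+CycD replicate 2 at 44 h, 0.0623 and 0.0844 without E2F+CycD replicate 1, and 0.115 and 0.155 without control replicate 1. The ph-p call was also lost without control replicate 2 at 44 h (0.0904) or at 24 h (0.0539). Psc reached 0.582 without control replicate 2 at 44 h, where its log2 fold change was -0.11, and 0.252 without E2F+CycD replicate 2, and it was lost without any 1 library other than control replicate 1 at 44 h. For pho, the difference between E2F and control wings at 44 h was -0.54 ± 0.15 (adjusted p = 0.0153), with 19.3 and 19.8 CPM against 32.1 and 24.7 CPM, and it turned to 0.07 with scaling by totals. The call for pho was lost without control replicate 1 (0.195), E2F replicate 1 (0.0835) or E2F replicate 2 (0.0611).

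**Figure D4:**
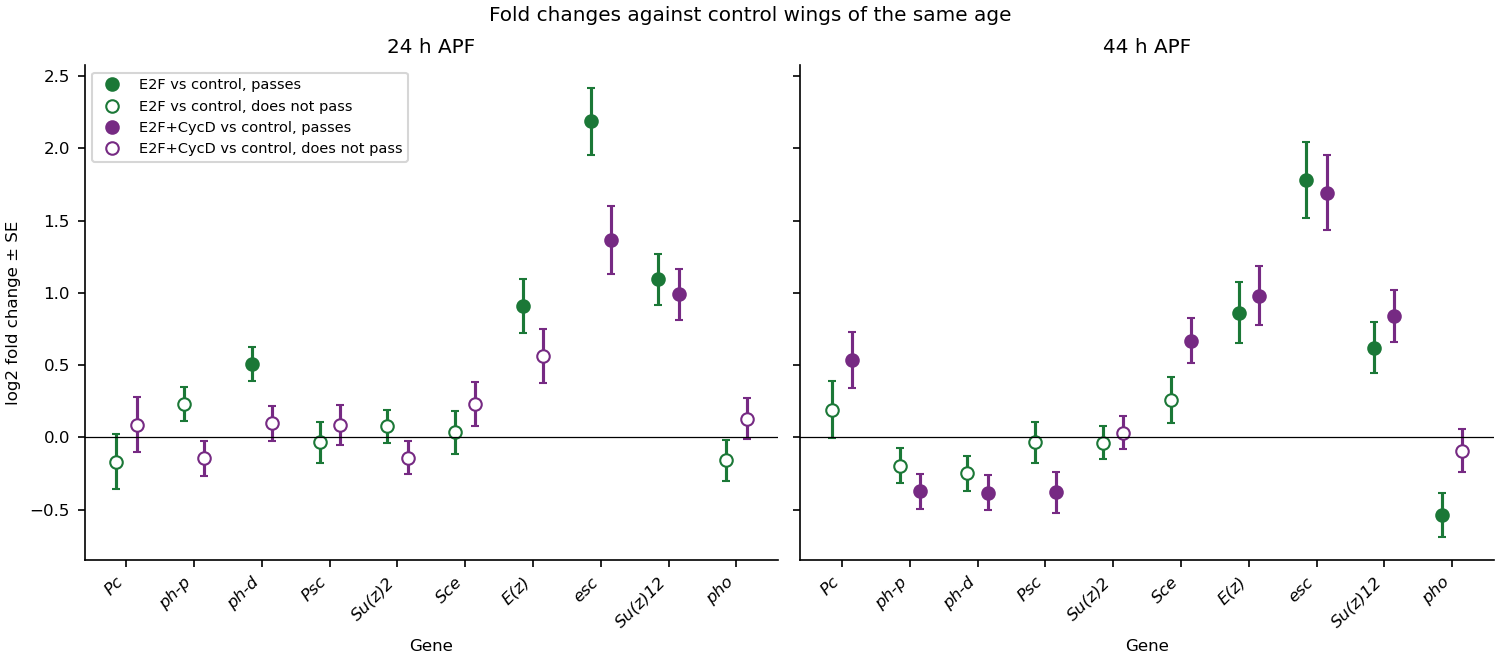
Log2 fold change (y axis, error bars SE) of each member against control wings of the same age, for E2F (green) and E2F+CycD (purple), with filled points where the test passed. esc lies highest in all 4 comparisons, at 2.19 and 1.78 with E2F and 1.37 and 1.69 with E2F+CycD.

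E2F+CycD wings were also compared directly with E2F wings, since at 44 h the latter have left the cell cycle. At 24 h, 2 members were lower, esc and ph-d (-0.41 ± 0.12 log2, adjusted p = 0.0481), where 7.7% of all genes were lower. At 44 h, 1 member was higher, pho, at 27.4 and 25.8 CPM against 19.3 and 19.8 CPM (0.45 ± 0.15, adjusted p = 0.0479), where 11.1% of all genes were higher. The ph-d call was lost without any 1 library other than the control libraries of 44 h, as was the pho call, with adjusted p up to 0.239 and 0.182. At 44 h the PRC2 differences were 0.12 ± 0.19 for E(z), -0.08 ± 0.22 for esc and 0.22 ± 0.17 for Su(z)12, and none passed. No member's response to E2F+CycD, or to the addition of CycD, passed a test of change between 24 h and 44 h with edgeR, where 24.4% and 6.83% of all genes did. In those tests 2 members each had an unadjusted p under 0.05, ph-d and Psc for E2F+CycD and esc and Psc for the addition of CycD, and DESeq2 called none.

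Within control wings, 1 member was higher and 4 lower at 44 h than at 24 h, where 27.4% of all genes were higher and 26.4% lower. Psc was at 207 and 199 CPM at 24 h and 130.5 and 159.8 CPM at 44 h (-0.49 ± 0.14 log2, adjusted p = 0.0125), and Su(z)2 at 139 and 139.7 CPM, then 182 and 182 CPM (0.39 ± 0.11, adjusted p = 0.0133). The Su(z)2 increase turns to a decrease when libraries are scaled by their totals. E(z), Pc and pho were lower by 0.70 ± 0.21, 0.60 ± 0.20 and 0.39 ± 0.15 (adjusted p = 0.0143, 0.0229 and 0.0437), and esc and Su(z)12 did not pass. Each of the 5 calls was lost without at least 2 of the 4 libraries: E(z) without replicate 1 at 24 h (0.0681) or 44 h (0.11), Pc without replicate 2 at 24 h (0.163) or 44 h (0.0552), and Psc without replicate 1 at 24 h (0.0639) or 44 h (0.0775). Su(z)2 was lost without replicate 1 (0.0839) or 2 (0.0868) at 24 h or replicate 2 at 44 h (0.0928), and pho without the same libraries (0.134, 0.107 and 0.142) and without 1 of 5 E2F and E2F+CycD libraries (0.0509 to 0.0539).

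All members differed between control transgenic and wild-type wings at 24 h, and all but Sce at 44 h, where 51.6% and 51.3% of all 9958 genes did. In the shared scaling of these libraries, ph-p was at 56.4 and 33.1 CPM in wild type and 270 and 254 CPM in control wings at 24 h (2.52 ± 0.23 log2, adjusted p = 9.25e-08), and ph-d at 44.8 and 28.2 and at 214 and 213 CPM (2.51 ± 0.21, adjusted p = 2.77e-08). Pc (2.04 ± 0.21), Su(z)2 (2.19 ± 0.21), Psc (1.64 ± 0.26) and Su(z)12 (1.15 ± 0.22) were higher in control wings too, while E(z) (-0.79 ± 0.19) and pho (-1.40 ± 0.22) were lower. Over all genes the difference at 24 h moved with exon length. Its median was -0.76 for genes under 1500 exon bases, -0.08 from 1500 to 3000, 0.63 from 3000 to 6000 and 1.27 from 6000 up. At 44 h these medians were -0.44, -0.17, 0.52 and 1.31. The members with the longest exons, ph-p, Su(z)2, Psc and ph-d (6887, 6721, 6332 and 6126 bases), were among the highest. Pc, with 2462 exon bases, was above Psc at 24 h, but at 44 h Pc was at 1.68 ± 0.21 and Psc at 2.13 ± 0.26. Series, genotype, temperature and depth change together here and cannot be told apart. Sce and esc lost their 24 h calls without wild-type replicate 2 at 24 h (adjusted p = 0.156 and 0.2) or control replicate 2 (0.107 and 0.189), and esc its 44 h call without wild-type replicate 1 (0.27) or control replicate 2 (0.28). The esc calls, near the threshold (0.043 and 0.0313), also went to between 0.0515 and 0.0526 without 1 of the L3 or 18 h libraries for 24 h and of the E2F libraries of 24 h for 44 h.

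**Figure D5:**
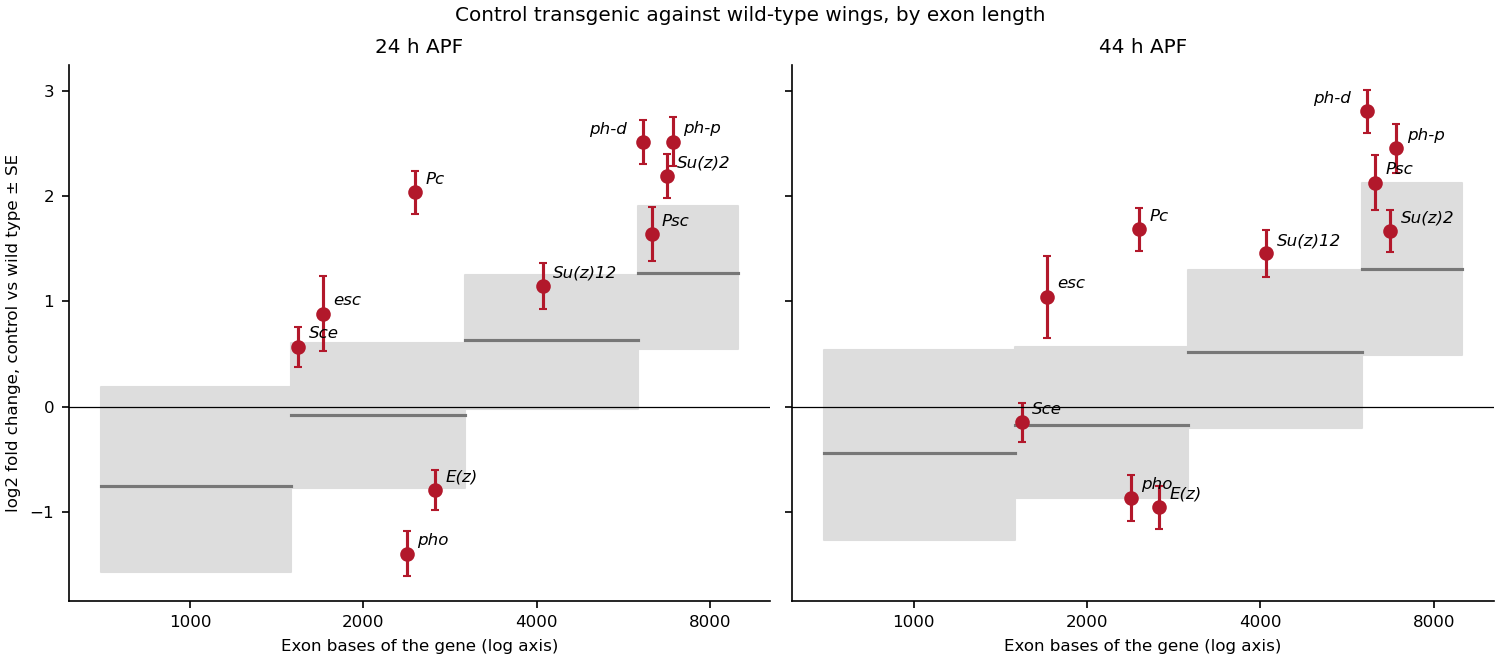
Log2 fold change of control transgenic against wild-type wings (y axis, error bars SE) by exon bases of the gene (x axis, log scale) at 24 and 44 h. Red points are the 10 members; grey bands span the quartiles of all genes in 4 length classes and grey lines their medians, which at 24 h run from -0.76 to 1.27.

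Per kilobase of exon, the order of the members differed between the series. The difference between series moved with exon length over all genes, and series, genotype, temperature and depth change together. Their parts in the order cannot be told apart. Over the 6 wild-type stages pho was the highest, with a mean of 38.8 CPM per kilobase (percentile 80.04 of the genes ranked), followed by Sce (14.6), Psc (11.6), E(z) (10.4), Pc (8.25), ph-p (7.30), Su(z)12 (6.73), Su(z)2 (6.65), ph-d (5.53) and esc (3.34, percentile 20.25). In this order the ranges over libraries of every pair of neighbours overlapped. These ranges span 12 libraries of 6 stages, against 2 libraries of 1 stage for the control wings that follow, so the overlaps are not comparable. In control wings at 24 h the order was ph-p (33.5), Psc (32.1), ph-d (30.7), Pc (26.2), Su(z)2 (20.8), pho (15.6), Sce (13.8), Su(z)12 (10.6), E(z) (4.96) and esc (2.82), and of these neighbours only ph-p and Psc overlapped. The order of E(z) and esc differed between control and E2F wings. E(z) was at 1.23 to 2.07 times the level of esc in the 4 control libraries and at 0.639 to 0.777 times in the 4 E2F libraries. In the 4 E2F+CycD libraries this ratio ran from 0.628 to 1.03. Su(z)12 was at 0.373 to 0.970 times the level of E(z) per exon base in the wild-type libraries and at 2.13 to 3.296 times in the transgenic libraries. Su(z)12 has 4098 exon bases and E(z) 2665, and the part of exon length in this shift was not tested.

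Other genes of the same pathway were followed as fixed lists, for which the dependence on single libraries is not reported. Of 15 further Polycomb group and partner genes, 1 was higher and 7 lower at 44 h than at L3, 6 were higher and none lower with E2F at 24 h and at 44 h, and with E2F+CycD 5 were higher at 24 h and 7 higher and 1 lower at 44 h. Their median log2 fold change was -0.43 from L3 to 44 h, 0.05 and 0.23 with E2F and 0.22 and 0.35 with E2F+CycD. Caf1-55, the histone-binding subunit that PRC2 shares with chromatin assembly factor 1, had the largest increase of the list with E2F at both ages. It was at 30.0 and 27.9 CPM in control, 184 and 164 CPM in E2F and 119 and 102 CPM in E2F+CycD wings at 24 h (2.59 ± 0.14 and 1.93 ± 0.14 log2, adjusted p = 1.81e-07 and 2.39e-06). In wild type Caf1-55 fell from 189 and 191 CPM at L3 to 40.0 and 43.5 CPM at 44 h (-2.18 ± 0.20, adjusted p = 1.29e-06). With E2F at 44 h, Pcl, whose product is a PRC2 accessory protein, was higher by 1.43 ± 0.16 (adjusted p = 3.99e-05). mxc, which is known for its role in histone gene transcription, was higher by 1.02 ± 0.23 (adjusted p = 0.0044).

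The complexes that oppose Polycomb or handle nucleosomes gave the comparison. Of 14 Trithorax group and COMPASS genes, 5 were higher and 2 lower with E2F at 24 h, and 3 were higher at 44 h. Of 10 genes of the Brahma remodeling complex, 7 were higher at 24 h and 5 at 44 h with E2F, and all 10 were lower at 44 h than at L3 in wild type. Of 13 chromatin assembly genes, 13 were higher at 24 h and 11 at 44 h with E2F, with medians of 2.04 and 1.85, and 12 were lower at 44 h than at L3 with a median of -2.71. The PRC2 genes had medians of 1.09 and 0.86 with E2F and -1.20 from L3 to 44 h, and the PRC1 genes 0.06, -0.04 and 0.01. Differences between these lists were not tested. Of 7 genes for factors that bind or recruit to Polycomb response elements, 2 were higher with E2F at 24 h, z, which encodes the Zeste protein, and cg, which encodes the Combgap protein (0.96 ± 0.14, edgeR adjusted p = 0.000358), and 3 were higher and 1 lower at 44 h.

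Of the 8 Hox genes, the best known targets of these complexes, 4 had enough counts to test in wild-type wings and 5 in transgenic wings. From L3 to 44 h, 2 of the 4 were higher and 2 lower. The higher 2 were low throughout: abd-A had no count at L3 and was at 0.652 and 2.04 CPM at 44 h, and Scr was at 0.218 and 0 CPM at L3 and 6.08 and 1.301 CPM at 44 h. Both could pass the filter on low counts only through stages after L3. The filter thus favoured a call of higher against L3, and no conclusion is drawn from these 2 calls. Antp, which is normally active in the thorax, was at 261 and 159 CPM at L3 and 67.3 and 63.8 CPM at 44 h (-1.68 ± 0.25 log2, adjusted p = 0.000101). Ubx, which specifies the haltere and is normally off in most of the wing, was at 17.4 and 11.03 CPM at L3, 10.03 and 37.3 CPM at 6 h and 1.52 and 2.04 CPM at 44 h (-3.00 ± 0.73 from L3 to 44 h, adjusted p = 0.00318). abd-A, an abdominal Hox gene, stayed low but was higher with E2F at 44 h, at 6.61 and 4.20 CPM against 0.733 and 0.649 CPM in control (2.96 ± 0.47, adjusted p = 0.000413). With E2F+CycD, abd-A passed at 24 h (1.67 ± 0.39, adjusted p = 0.0151) and not at 44 h, where it was at 1.49 and 1.22 CPM. Antp was the Hox gene that was lower with E2F+CycD at 44 h, at 40.2 and 34.0 CPM against 67.9 and 42.8 CPM in control (-0.58 ± 0.19, adjusted p = 0.0216). Abd-B, the other abdominal gene tested, was higher with E2F at 44 h by 2.35 ± 0.73 (adjusted p = 0.0241). Whether haltere or other tissue was present in the samples was not tested.

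For each member the 3 genes with the most similar levels over the 12 groups were found by Pearson's r of log2 group means, as a description, over 9958 genes. The difference between the 2 series dominates this measure for most members. E(z) was most like Cdk1 (r = 0.969), the mitotic kinase, CG6693 (0.966) and Aos1 (0.963), and esc most like D12 (0.978), Pym (0.97) and tefu (0.969). Su(z)2 was most like trx (0.984), a Trithorax group methyltransferase, Psc most like Axn (0.988), and ph-p and ph-d most like CG31342 (0.994) and rno (0.992). Pc, Sce, Su(z)12 and pho were most like CG34220 (0.984), CG5167 (0.927), CG17002 (0.987) and CG17683 (0.986).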

How the data were processed

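RNA-seq counts of 24 libraries were analysed, 2 in each of 12 groups, and 34 FAIRE-seq samples were not analysed here. Per the labels, stranded mRNA libraries were made, and the submitters' processing notes name STAR, HTSeq, Bowtie2 and dm6. The authors aligned the RNA reads with STAR and deposited unnormalized HTSeq counts per gene and library, replicates apart. Versions, annotation and strand setting are not given in the sources used here, so genes sharing or overlapping sequence are uncertain: a gene on the other strand overlaps 2.44% of the exon bases of Pc and 1.43% of those of E(z). Of 17559 identifiers, 17253 matched a symbol in the Ensembl BDGP6.54 annotation, which uses dm6 coordinates, and 306 did not. Rows that name no gene (36.5% to 68.9% of each file's total) were left out.

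Wild-type, transgenic and all libraries were fitted separately in edgeR 4.0.16 (R 4.3.3) with TMM scaling, filterByExpr (minimum count 10, minimum total 15; 8669, 9636 and 9958 genes kept), 1 coefficient per group and no replicate block. The quasi-likelihood F-test was adjusted by Benjamini-Hochberg over all genes tested, and the common biological coefficient of variation was 20.2%, 16.4% and 18.8%. Alternatives were DESeq2 1.42.0, RLE scaling, library totals, every gene with at least 1 count, only the compared groups, a replicate block, and each library left out. In simulated counts, edgeR recovered 40 of 100 genes changed by 1 on the log2 scale and 97 of 100 changed by 2 for 24 h against 18 h in wild type (8183 genes tested, 4 false calls), 65 and 99 for E2F against control at 44 h (9388 genes, 8 false calls), and 54 and 97 for control against wild type at 24 h (9324 genes, 5 false calls). Only genes above a minimum mean count were changed in the simulation, so these rates do not describe genes with few reads, such as esc in wild type. All other genes were simulated without a difference. In the data 12.9% of genes were called for 24 h against 18 h and 51.6% for control against wild type at 24 h. The Benjamini-Hochberg cutoff depends on the share of changed genes, so the rates do not carry over to the data. Replicates differed beyond sampling noise, the chi-square statistic over its degrees of freedom being 7.39 to 114.1. CPM per kilobase used exon bases of the annotation, and correlations used log2(CPM + 0.5).

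The rule for named genes took all 10 members. From each list at most 3 genes per direction were named, those with the largest change that passed, and for likeness the 3 genes with the highest r. Members and lists were chosen with earlier results of these data known. Symbols without a match were left out of lists (Su(z)3, Dsp1, and 3 markers).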

Additional observations from a re-analysis of the deposited data

Results flagged for a closer look

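The effect of E2F on ph-d differed between the ages, by the test of the difference itself. Relative to control wings, ph-d was higher at 24 h (0.51 ± 0.12 log2) and at 44 h its value was -0.25 ± 0.12, a difference of -0.76 ± 0.17 (edgeR adjusted p = 0.00985). It moved from 188 and 188 CPM in control to 265 and 269.7 CPM in E2F wings at 24 h, and from 202 and 175 CPM to 155 and 162 CPM at 44 h. With scaling by library totals the 44 h value turned to 0.36 and the difference was -0.32 (adjusted p = 0.247), and with only the compared groups in the fit -0.55 (adjusted p = 0.0809). Without control replicate 2 at 24 h it was -0.75 (adjusted p = 0.0506). ph-p, which shares part of its sequence with ph-d, had a difference of -0.43 ± 0.17 (adjusted p = 0.108). Whether reads moved between the duplicates was not tested. Groups of 2 libraries are too small for a test of single outlying libraries.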

How the results depend on the processing

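Of 66 calls of a member in a comparison, 35 passed under every alternative and 31 failed under at least 1. These include the 10 and 9 calls of control against wild type at 24 h and 44 h. Of those, only Sce and esc at 24 h and esc at 44 h failed under an alternative. The total is therefore not a rate for the stage and E2F comparisons, where a smaller share of calls passed under every alternative. Replicate numbers were not taken as a pairing, since deviations of same-numbered libraries correlated by over 0.1 in only 2 of 15 pairs of wild-type groups (mean 0.01, highest 0.22) and 6 of 15 pairs of transgenic groups (mean 0.06, highest 0.19). In all 4 groups of 44 h, replicate 1 had the larger share of reads without a unique alignment (46.1% to 54.6%, against 34.8% to 39.2%). With the replicate block, 2 members passed for 6 h against L3 and 4 with E2F at 24 h, 3 rather than 2 for E2F+CycD against E2F at 24 h, and 8 rather than 7 for any stage, and no count moved by over 1.5 times.

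Scaling by library totals moved the median of all genes by -0.95 to 0.98 on the log2 scale, and the share of calls that were higher to between 19.7% and 89.7%, from between 28.7% and 66.0%. Under it the log2 fold change of pho with E2F at 44 h was 0.068, those of ph-p, ph-d and Psc with E2F+CycD at 44 h were 0.61, 0.60 and 0.61, and that of Su(z)2 in control wings from 24 h to 44 h was -0.57. Relative to the shifted median these were -0.54, -0.37, -0.38, -0.37 and 0.38, close to their values under TMM. The number of members passing became 6 for 6 h against L3, 1 for 24 h against 18 h, 2 for 44 h against 36 h, 10 for 44 h against L3, 9 with E2F at 44 h, 1 and 5 for E2F+CycD against E2F at 24 h and 44 h, and 10 in control wings between ages. For the changes of effect between ages it became 0 for E2F, 8 for E2F+CycD and 3 for the addition of CycD. With DESeq2 or RLE scaling, the share of higher calls among all genes with E2F+CycD at 24 h was 48.8% or 53.9%, against 66.0%, and with DESeq2 and E2F at 24 h 54.7%, against 65.5%.

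DESeq2 gave 1 member for 6 h against L3 and 0 for E2F+CycD against E2F at 44 h. It lost E(z) for 6 h against L3 (DESeq2 adjusted p = 0.134), Pc for 18 h against 6 h (0.0716) and esc for 36 h against 24 h (0.0708). Psc with E2F+CycD at 44 h (0.0531) and Pc for any stage (0.17) were also lost. So was pho for E2F+CycD against E2F at 44 h (0.0729) and in control wings between ages (0.0545). RLE scaling gave 1 for 24 h against 18 h and 0 for E2F+CycD against E2F at 44 h. Every gene with at least 1 count gave 1 for 6 h against L3, 1 for 24 h against 18 h, 1 for 44 h against 36 h, 5 with E2F+CycD at 44 h, 1 and 0 for E2F+CycD against E2F at 24 h and 44 h, and 0 for the change of the E2F effect. Only the compared groups gave 1 for 6 h against L3, 1 for 18 h against 6 h, 1 for 24 h against 18 h, 2 for 44 h against 36 h, 4 with E2F+CycD at 44 h, 2 for E2F+CycD against E2F at 44 h, 3 in control wings between ages and 0 for the change of the E2F effect. The causes were not tested.

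Leaving out 1 library gave 0 to 4 members for 6 h against L3, 1 to 4 for 18 h against 6 h, 0 to 1 for 24 h against 18 h, 1 to 3 for 36 h against 24 h, 0 to 2 for 44 h against 36 h, 4 to 5 for 44 h against L3 and 5 to 8 for any stage. It gave 2 to 4 with E2F at 24 h, 1 to 4 at 44 h, 2 to 3 with E2F+CycD at 24 h, 4 to 7 at 44 h, 0 to 3 and 0 to 2 for E2F+CycD against E2F at 24 h and 44 h, 1 to 5 in control wings between ages, 0 to 1 for the change of the E2F effect, and 8 to 10 and 8 to 9 for control against wild type at 24 h and 44 h. A lone library was then assumed to vary like the other groups. Depth limits esc most, with 5 and 2 reads at 36 h.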
